A study of Mus musculus with 16 samples.

Results

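The tricarboxylic acid (TCA) cycle and the enzymes that feed it or draw on it were followed through a chosen list of 34 genes in mouse blood stem and progenitor cells. A gene entered when a probe set on the array carried that gene's symbol and no other. This left 33 of the 34 genes, each with 1 probe set, among 30176 genes tested. Glud1, whose probe set also carries Gm3219, was not analysed here. Expression was measured on 16 single-color arrays of total RNA, 4 in each of 4 groups. The cells were sorted from bone marrow as lineage-negative c-Kit+ Sca-1+ cells (KSL, which hold the blood stem cells) or as lineage-negative c-Kit+ Sca-1- cells (KL, mostly committed progenitors). Marrow came from wild-type (WT) mice or from Camkk2 null (KO) mice, 16 mice of each genotype. Camkk2 null mice lack CaMKK2, a calcium- and calmodulin-dependent kinase, through a germ-line deletion, so every cell type of these animals carries it and no sorted cell was exposed to a treatment. Strain, age and the number of mice behind each array are not in the labels.

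The TCA cycle runs in the mitochondrial matrix. It condenses acetyl-CoA with oxaloacetate to citrate, oxidizes citrate back to oxaloacetate in a ring of reactions, and passes the electrons to the respiratory chain as NADH and reduced flavin. Carbon enters mainly through pyruvate and leaves as citrate, malate or aspartate for lipid, glucose and nucleotide synthesis. Blood stem cells are known for relying on glycolysis while they rest and for engaging mitochondrial respiration as they divide and mature.

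The Camkk2 probe set did not follow the genotype label. It read 7.98, 8.02, 7.11 and 7.45 on the KSL WT arrays against 7.82, 7.93, 7.14 and 7.14 on the KSL null arrays. The KL WT arrays read 7.86, 7.81, 6.89 and 7.48 against 7.83, 7.82, 7.08 and 7.12. Its log2 difference was -0.13 ± 0.24 (SE) in KSL and -0.05 ± 0.24 in KL, and replicates 1 and 2 stood 0.70 above replicates 3 and 4 in the mean of all groups. Whether the probes lie in the deleted part is not given in the sources used here, so the gene does not check the labels. Between genotype labels 5746 genes passed the test used here in KSL and 4774 in KL. The KSL and KL arrays differed in 33 genes among WT arrays and in 324 among null arrays. Of 9 stem and early progenitor genes, 0 read higher in KSL than in KL among WT arrays (median log2 difference -0.20), and none passed. Among null arrays 3 of the 9 passed lower in KSL (median -0.37), and 3 of 10 erythroid genes passed higher. These markers thus did not show the KSL arrays to be richer in stem cell RNA than the KL arrays. Whether genotype and cell type labels were exchanged was not tested. All comparisons are therefore between arrays labelled Camkk2 null and arrays labelled WT, and each difference means what its labels mean. Sca-1 (Ly6a) was not analysed here. Kit, which encodes the c-Kit used for sorting both populations, was lower on the null-labelled arrays, at 9.22 to 9.41 against 9.82 to 10.54 in KSL and at 9.57 to 9.78 against 10.20 to 10.46 in KL. Marker genes of other stages also moved with the label. Of 10 erythroid genes 9 were higher in each population, and their summed linear signal was 13505 to 15768 on KSL null against 3294 to 3674 on KSL WT arrays, and 11203 to 15355 against 2377 to 3491 in KL. Of 9 stem and early progenitor genes 8 were lower in each population, with summed signals of 1635 to 1755 against 5207 to 7163 in KSL and 2253 to 2755 against 6342 to 7205 in KL. Of 10 neutrophil and precursor genes 7 were higher in KSL and 6 in KL. Of 6 monocyte and macrophage genes 2 were higher and 2 lower in KSL and 3 were higher and 1 lower in KL, and their sums were 4423 to 5544.5 on KSL null against 1436 to 2054 on KSL WT arrays and 3706 to 6724 against 903 to 1411 in KL. Ly6c2 alone carried most of that rise, reading 11.96 to 12.32 on KSL null against 9.85 to 10.57 on KSL WT arrays, so the sums do not show a shift of the whole set. Of 6 B cell genes 2 were lower in each population, with sums of 576.5 to 709 against 2568 to 3666 in KSL and 713 to 889 against 2689 to 3274 in KL. Most of that fall came from Ighm, which read 7.54 to 8.28 on KSL null against 11.04 to 11.65 on KSL WT arrays. Of 6 dendritic cell genes 3 were lower in KSL and 1 in KL, and of 6 mast cell and basophil genes 1 was higher in KSL and 4 in KL. The dendritic cell gene lower in KL was Flt3, also counted among the stem and early progenitor genes. Of 6 megakaryocyte genes 2 were lower in KSL and 1 was higher in KL, and of 7 T and NK cell genes 1 was lower in each. The part of these shifts in the enzyme results was not tested, and in a bulk array fewer cells of a type and less RNA per cell cannot be told apart.

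The question asked of the arrays was which enzymes of the cycle differ with loss of Camkk2 in cells labelled KSL and in cells labelled KL. In KSL, 12 of the 33 genes (19.0% of all genes) passed the test, meaning an adjusted p under 0.05 in limma's moderated test with Benjamini-Hochberg adjustment over all genes. Of these, 9 were higher on the null-labelled arrays, where 8.50% of all genes passed in that direction, and 3 were lower, where 10.5% did. In KL, 15 passed (15.8% of all genes), 14 of them higher (7.13% of all genes) and 1 lower (8.69%). In both populations 10 genes passed, which is 83.3% of the KSL calls and 66.7% of the KL calls, and all 10 had the same sign in both. The same shares over all genes are not given here, so this overlap is not read as particular to the list. Cs, Aco1, Idh3a, Dlst, Dld, Mdh2, Dlat, Pcx and Me2 rose and Mdh1 fell. The KSL and KL arrays were separate hybridizations, so the 2 comparisons share no array, but whether KSL and KL arrays with the same number came from the same mice is not given in the sources used here.

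The differences were modest. The median log2 difference of the 33 genes was 0.11 in KSL, where that of all genes was 0.05, and 0.16 in KL, where it was 0.03. The KSL order rested on 1 array, since without KSL WT replicate 2 the medians were 0.05 for the list and 0.06 for all genes, and after quantile normalization they were 0.16 and 0.02. A fold of 1.5 upward was reached by 3 genes of the list in KSL (1.31% of all genes) and 2 in KL (1.28%), and by none downward (3.70% and 2.72%). Most enzymes of the list are bright on the array, and bright genes passed the test more often. Among the 15088 genes at or above the median brightness, which held 31 of the list, 11.5% were higher in KSL and 11.8% in KL, against 29.0% and 45.2% of the 31. Lower calls made up 18.1% of bright genes in KSL and 14.6% in KL, against 9.68% and 3.23% of the 31. Ranges of the groups did not overlap for 10 genes that were higher in KSL (14.9% of all genes) and 3 that were lower (11.8%), and in KL for 14 (10.7%) and 2 (10.2%).

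**Figure D1:**
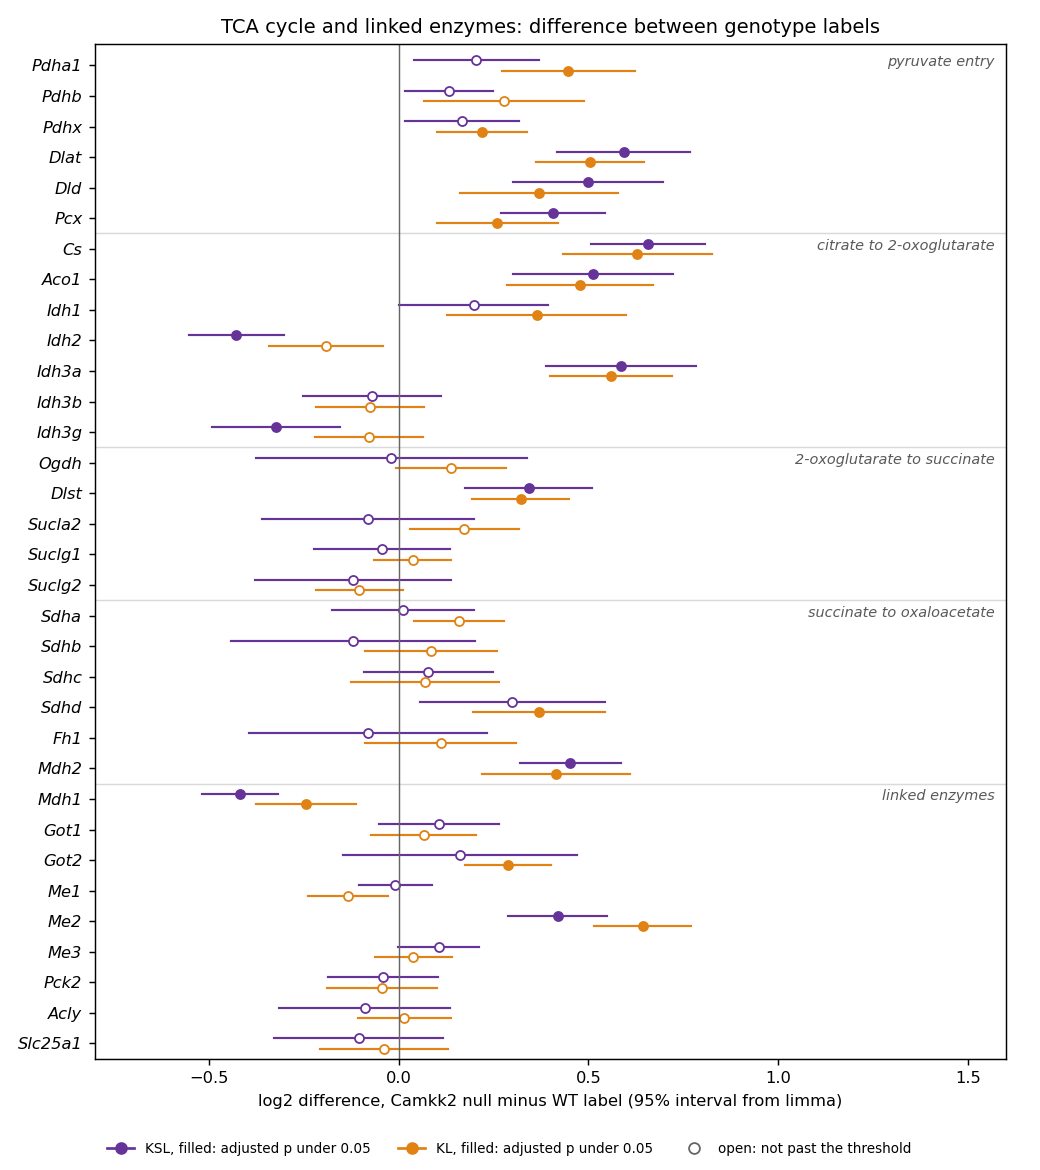
Log2 difference between arrays labelled Camkk2 null and WT for 33 genes, grouped by role, in KSL and in KL (4 arrays a group). Points are differences, lines are 95% intervals from limma and filled points passed the test: Cs stands at 0.66 in KSL and 0.63 in KL, and Mdh1 at -0.42 and -0.24.

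The promoters of 4 genes that passed the test are given as examples, Idh3g and Sdhd with the motif marked below and Cs and Mdh2 without it. Cs and Mdh2 rose in both populations, Idh3g fell in KSL and Sdhd rose in KL. Each run holds the 150 bases before the annotated start, written 5′ to 3′ on the gene's own strand, from RefSeq on GRCm38.p6, and capitals mark the ETS core CCGGAAG or its reverse complement. The Cs run is chr10:128337577-128337726 on the plus strand, Mdh2 is chr5:135778499-135778648 on the plus strand, Idh3g is chrX:73786898-73787047 on the minus strand and Sdhd is chr9:50603850-50603999 on the minus strand.
Cs: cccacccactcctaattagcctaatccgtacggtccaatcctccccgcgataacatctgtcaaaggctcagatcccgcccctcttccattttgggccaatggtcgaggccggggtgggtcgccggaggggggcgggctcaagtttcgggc
Mdh2: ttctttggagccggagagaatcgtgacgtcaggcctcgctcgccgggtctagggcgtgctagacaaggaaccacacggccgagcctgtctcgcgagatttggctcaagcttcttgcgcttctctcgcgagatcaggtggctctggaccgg
Idh3g: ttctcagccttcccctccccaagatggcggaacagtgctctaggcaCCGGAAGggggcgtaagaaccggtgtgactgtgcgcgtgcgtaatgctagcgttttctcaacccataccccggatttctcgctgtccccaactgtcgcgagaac
Sdhd: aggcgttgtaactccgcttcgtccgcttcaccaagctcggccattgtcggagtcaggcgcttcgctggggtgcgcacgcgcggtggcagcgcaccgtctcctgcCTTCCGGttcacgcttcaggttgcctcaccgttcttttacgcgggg
A search for 3 motifs, each read on both strands, covered 27025 genes, 30 of them on the list. It ran from 250 bases before to 50 after each start. The ETS core stood in the windows of 5 listed genes (Idh3b, Idh3g, Dlst, Sdhb and Sdhd), or 16.7%, against 9.93% of all genes. The E-box CACGTG stood in 3 (Ogdh, Pcx and Slc25a1), or 10.0%, against 8.09%. The GATA motif AGATAAG stood in none of the 30 and in 3.50% of all genes. Of the 5 genes with the ETS core, Dlst passed the test upward in both populations, Sdhd passed upward in KL, Idh3g passed downward in KSL, and Idh3b and Sdhb passed in neither.

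Pyruvate reaches the cycle through the pyruvate dehydrogenase complex, which makes acetyl-CoA, or through pyruvate carboxylase, which makes oxaloacetate. Of these 6 genes, 3 rose in KSL (8.50% of all genes) and 5 in KL (7.13%), and none fell (10.5% and 8.69%). Among the brighter 15088 genes, 11.5% rose in KSL and 11.8% in KL. Counts this small do not compare one part of the cycle with another. Dlat, the E2 acetyltransferase at the core of the complex, had the largest difference of them in both populations. It read 7.24, 7.17, 6.99 and 6.96 on the KSL WT arrays and 7.61, 7.80, 7.72 and 7.59 on the KSL null arrays. In KL the 4 WT arrays read 7.07, 7.20, 7.04 and 7.08 and the null arrays 7.57, 7.68, 7.70 and 7.46. Every null-labelled array lay above every WT array of its population, with differences of 0.59 ± 0.078 (SE, 1.51-fold, adjusted p = 0.000561) in KSL and 0.50 ± 0.064 (adjusted p = 0.000579) in KL.

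Dld, the E3 dihydrolipoamide dehydrogenase that this complex shares with the 2-oxoglutarate dehydrogenase complex, rose by 0.50 ± 0.088 in KSL (adjusted p = 0.00336) and 0.37 ± 0.093 in KL (adjusted p = 0.0228, and 0.0522 to 0.0678 without null replicate 2, 3 or 4). Its lowest null-labelled arrays, at 8.32 in KSL and 8.25 in KL, lay above the highest WT arrays, at 8.10 and 8.11. Pcx, pyruvate carboxylase, rose by 0.41 in KSL (adjusted p = 0.00134) and by 0.26 in KL (adjusted p = 0.0346, a call lost in 5 of the 8 fits that left out 1 array: WT replicate 1 or 4, or null replicate 2, 3 or 4). The other 3 genes of the complex moved less in KSL. Pdha1, the E1 alpha subunit on which the pyruvate dehydrogenase kinases act, rose by 0.45 in KL (adjusted p = 0.00371), where its null-labelled arrays read 8.54 to 8.73 against 8.07 to 8.39. In KSL its difference was 0.20 (adjusted p = 0.0798). Pdhx, the protein that tethers Dld to the core, rose by 0.22 in KL (adjusted p = 0.0188, and 0.0577 without null replicate 3) and had a difference of 0.17 in KSL (adjusted p = 0.109). Pdhb, the E1 beta subunit, did not pass, at 0.13 in KSL (adjusted p = 0.0994) and 0.28 in KL (adjusted p = 0.0805), and its ranges overlapped in both populations.

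Citrate synthase (Cs) condenses acetyl-CoA with oxaloacetate, and the steps that follow take citrate to 2-oxoglutarate. Cs had the largest difference of all 33 genes in KSL. The KSL WT arrays read 9.74, 9.46, 9.55 and 9.55 and the null arrays 10.15, 10.30, 10.24 and 10.24, a difference of 0.66 ± 0.067 (1.58-fold, adjusted p = 0.000119). The KL WT arrays read 9.52, 9.56, 9.77 and 9.60 and the null arrays 10.05, 10.40, 10.37 and 10.15, a difference of 0.63 ± 0.087 (1.55-fold, adjusted p = 0.000984). The groups did not overlap in either population. Aco1, the cytosolic aconitase that doubles as an iron-responsive RNA-binding protein, rose by 0.51 in KSL (adjusted p = 0.00434) and 0.48 in KL (adjusted p = 0.00423).

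The NAD-dependent isocitrate dehydrogenase of the cycle is built from a catalytic alpha subunit (Idh3a) and from beta and gamma subunits (Idh3b and Idh3g), and its 3 genes moved unequally. Idh3a read 8.86, 8.63, 8.76 and 8.71 on the KSL WT arrays and 9.19, 9.50, 9.17 and 9.44 on the null arrays. On the KL arrays it read 8.76, 8.90, 9.03 and 8.79 under the WT label and 9.31, 9.41, 9.50 and 9.50 under the null label. All null-labelled values lay above all WT values within each population, and Idh3a rose by 0.59 ± 0.088 in KSL (adjusted p = 0.00127) and 0.56 ± 0.072 in KL (adjusted p = 0.000613). The study singled out an Idh3 gene from these same KSL arrays, so its direction there is not independent evidence. Idh3b had differences of -0.07 (95% interval -0.25 to 0.11) in KSL and -0.08 (-0.22 to 0.07) in KL. Idh3g read 10.83, 10.65, 10.70 and 10.73 on the KSL WT arrays and 10.20, 10.47, 10.41 and 10.53 on the null arrays, values that do not overlap. It fell by 0.32 ± 0.076 in KSL (adjusted p = 0.0150) and had a difference of -0.08 in KL (-0.22 to 0.06), where the groups overlapped.

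Idh1 and Idh2, the cytosolic and mitochondrial NADP-dependent isocitrate dehydrogenases, had differences of opposite sign, but in neither population did both pass. Idh2 read 9.40, 9.20, 9.28 and 9.26 on the KSL WT arrays and 8.83, 8.84, 8.93 and 8.83 on the null arrays, and it fell by 0.43 ± 0.056 (adjusted p = 0.000552) without overlap. In KL its difference was -0.19 (-0.34 to -0.04, adjusted p = 0.0904), and the ranges of 9.10 to 9.38 and 9.37 to 9.54 overlapped. Idh1 rose by 0.36 in KL (adjusted p = 0.0434) with overlapping ranges, a call lost in 6 of the 8 fits that left out 1 array (all but those without WT replicate 2 or null replicate 4, adjusted p up to 0.115). In KSL its difference was 0.20 (adjusted p = 0.141). Cs, Idh3a, Dlat and Me2 are given on every array because they passed with a fold of at least 1.5, and other genes given so were chosen after their values were seen.

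**Figure D2:**
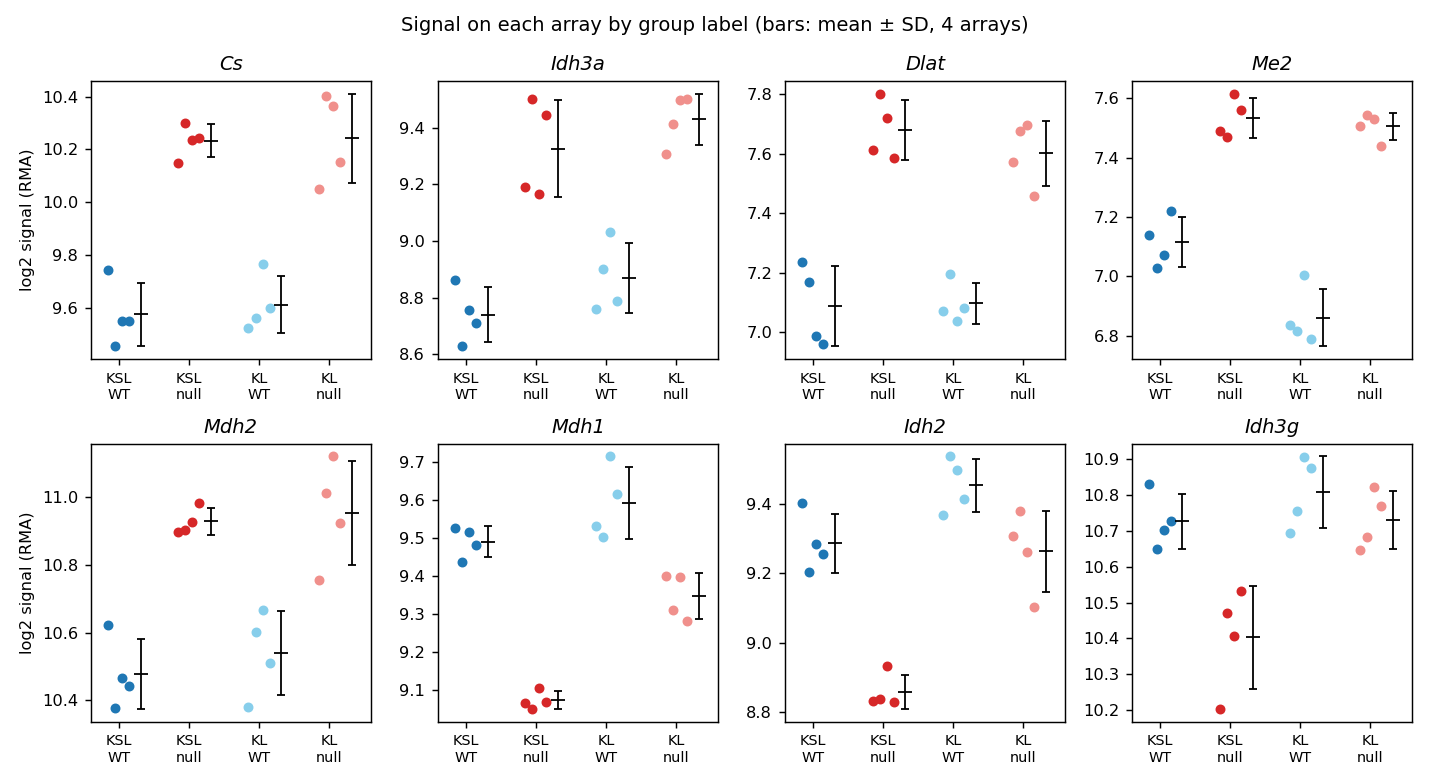
Log2 signal of 8 genes on each of the 16 arrays, by group label (points, replicates 1 to 4 from left to right), with mean and SD beside them. Cs, Idh3a, Dlat, Me2 and Mdh2 stand higher on the null-labelled arrays of both populations and Mdh1 lower, without overlap, whereas the KL ranges of Idh2 and Idh3g overlap.

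From 2-oxoglutarate to succinate the cycle uses the 2-oxoglutarate dehydrogenase complex and succinyl-CoA synthetase. Of these 5 genes, Dlst alone passed. Over all genes 19.0% passed in KSL and 15.8% in KL, so this count is not read as particular to these genes. Dlst, the E2 succinyltransferase of the complex, rose by 0.34 ± 0.075 in KSL (adjusted p = 0.0108) and 0.32 ± 0.057 in KL (adjusted p = 0.00396), with null-labelled arrays at 8.65 to 8.85 and 8.72 to 8.95 against 8.26 to 8.58 and 8.49 to 8.56. Ogdh, the E1 subunit that decarboxylates 2-oxoglutarate, had differences of -0.02 (-0.38 to 0.34) in KSL and 0.14 (-0.01 to 0.28) in KL. The KSL WT arrays read 9.68, 8.91, 9.01 and 8.92, the first far above the rest. The synthetase genes are Suclg1, the shared alpha subunit, and Sucla2 and Suclg2, the beta subunits for ATP and for GTP. Their differences ran from -0.12 to -0.04 in KSL and from -0.10 to 0.17 in KL, with adjusted p of 0.104 or more.

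Succinate is oxidized to fumarate by succinate dehydrogenase, which is also complex II of the respiratory chain, and on to oxaloacetate by fumarase and malate dehydrogenase. Of these 6 genes 2 rose in KL (7.13% of all genes) and 1 in KSL (8.50%), and none fell (8.69% and 10.5%). Sdhd, a membrane anchor subunit of the dehydrogenase, read 9.88, 10.14, 10.17 and 9.91 on the KL WT arrays and 10.34, 10.31, 10.46 and 10.47 on the null arrays, a rise of 0.37 ± 0.077 (adjusted p = 0.00929). In KSL its difference was 0.30 (adjusted p = 0.0831), with overlapping ranges. Sdha and Sdhb, the flavin and iron-sulfur subunits, and Sdhc, the other anchor, did not pass, at -0.12 to 0.08 in KSL and 0.07 to 0.16 in KL. Fh1, fumarase, had differences of -0.08 in KSL and 0.11 in KL. It was the 1 gene of the list whose signal varied with the replicate number across all 16 arrays (limma F test, adjusted p = 0.0339, 0.577% of all genes), replicates 1 and 2 minus replicates 3 and 4 giving -0.31. The KSL null replicate 1 array was the lowest of the 16 for 10 of the 33 genes, Fh1 (8.48), Sdhb (9.50) and all 3 synthetase genes among them, and KSL WT replicate 2 was the lowest for 9. Without the former 14 genes passed in KSL, the 12 plus Pdha1 and Sdhd, and without the latter the same 12.

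The mitochondrial and cytosolic malate dehydrogenases moved in opposite directions. Mdh2, which closes the cycle in the matrix, read 10.62, 10.38, 10.46 and 10.44 on the KSL WT arrays and 10.90, 10.90, 10.93 and 10.98 on the null arrays. Mdh1, the cytosolic form that serves the malate-aspartate shuttle, read 9.53, 9.44, 9.51 and 9.48 against 9.07, 9.05, 9.11 and 9.07. Mdh2 rose by 0.45 ± 0.060 (adjusted p = 0.000577) and Mdh1 fell by 0.42 ± 0.045 (adjusted p = 0.000162), both without overlap. In KL, Mdh2 read 10.38, 10.60, 10.67 and 10.51 against 10.76, 11.01, 11.12 and 10.92, and Mdh1 read 9.53, 9.50, 9.71 and 9.62 against 9.40, 9.31, 9.40 and 9.28. Mdh2 rose there by 0.41 ± 0.087 (adjusted p = 0.00949) and Mdh1 fell by 0.24 ± 0.059 (adjusted p = 0.0186), again without overlap. The Mdh1 call in KL was lost on leaving out WT replicate 4, null replicate 2 or null replicate 4, with the difference between -0.27 and -0.20 over all 8 such fits. The Mdh2 call in KL held in those 8 fits but was lost under a t-test with Benjamini-Hochberg adjustment.

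Of the 9 enzymes linked to the cycle from outside, Me2 rose and Mdh1 fell in both populations and Got2 rose in KL. Over all genes 8.50% rose and 10.5% fell in KSL, and 7.13% rose and 8.69% fell in KL. Me2, the mitochondrial NAD-dependent malic enzyme that turns malate to pyruvate, had the largest difference of the list in KL. The KL WT arrays read 6.84, 6.82, 7.00 and 6.79 and the null arrays 7.51, 7.54, 7.53 and 7.44, a rise of 0.64 ± 0.057 (1.56-fold, adjusted p = 7.55e-05). The KSL WT arrays read 7.14, 7.03, 7.07 and 7.22 and the null arrays 7.49, 7.47, 7.62 and 7.56, a rise of 0.42 ± 0.059 (adjusted p = 0.000830). Neither population showed overlap. Me1 and Me3, the cytosolic and mitochondrial NADP-dependent malic enzymes, did not pass, and both lie below the median brightness of the genes tested. Got2, the mitochondrial aspartate aminotransferase, rose by 0.29 in KL (adjusted p = 0.00369) and had a difference of 0.16 in KSL (adjusted p = 0.414). Got1, its cytosolic counterpart, Pck2, the mitochondrial phosphoenolpyruvate carboxykinase, Acly, which splits exported citrate, and Slc25a1, the carrier that exports it, passed in neither population. Their differences ran from -0.11 to 0.11 in KSL and from -0.04 to 0.07 in KL.

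**Figure D3:**
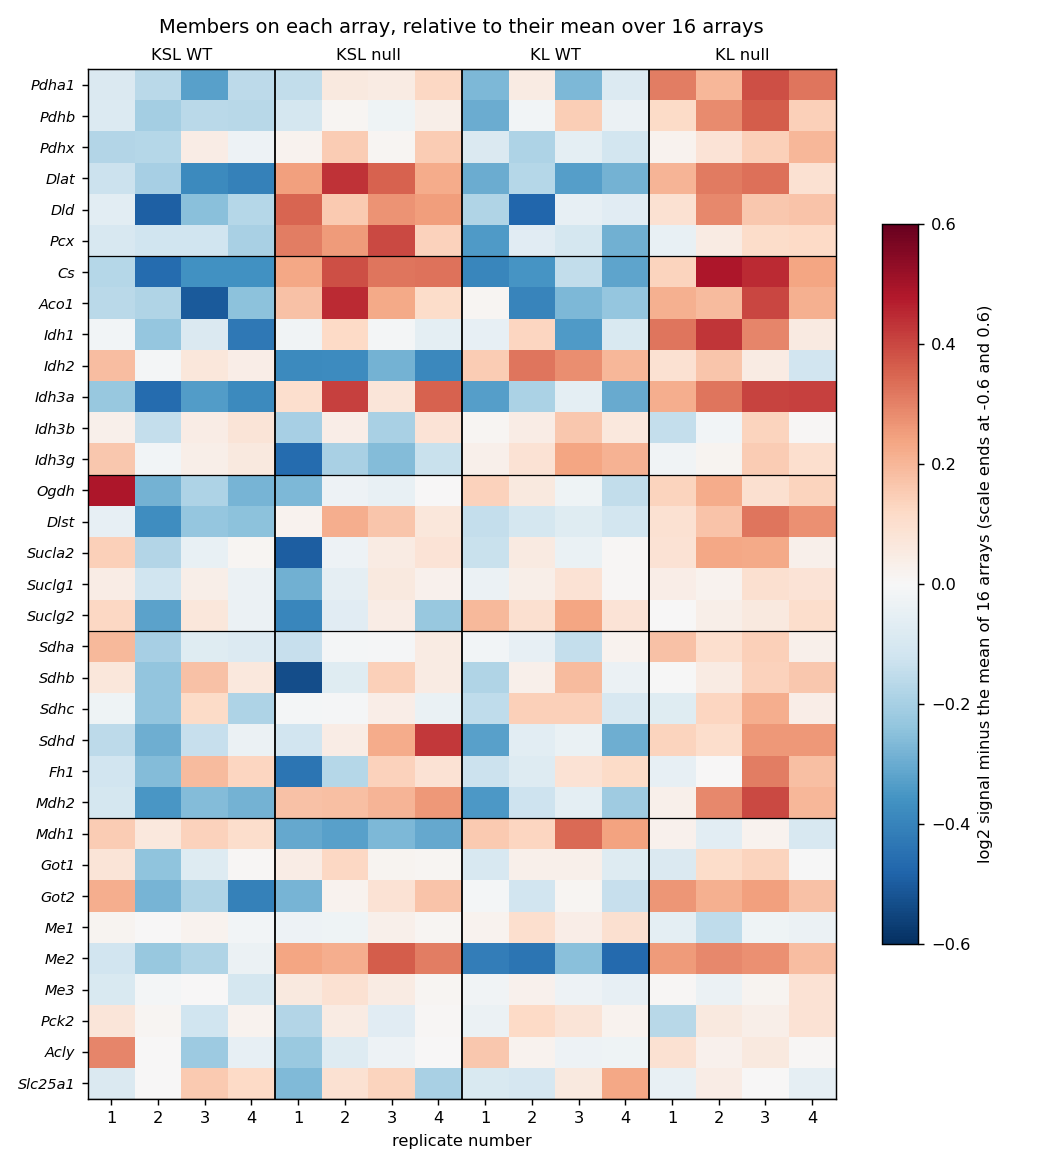
Signal of the 33 genes on each of the 16 arrays, as log2 signal minus the gene's mean over the arrays, in columns by group label and replicate number and in rows by role. Red is above and blue below the mean; the rows of Dlat, Cs, Idh3a, Mdh2 and Me2 change color with the label in both populations, and the KSL null replicate 1 column is blue for Fh1, Sdhb and Sucla2.

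Whether genes of one complex or reaction moved unequally was tested on the difference of their log2 signals within each array. This test was added after the values were seen. It covered 31 pairs, with a two-sided exact permutation test of the mean of the KSL and KL differences, in which labels were exchanged within each population (4900 assignments, smallest possible p = 0.000408) and p-values were adjusted over the 31. The pairs share genes and arrays, so they are not independent of one another. The test takes KSL and KL arrays as independent samples. If arrays with the same genotype label and number came from the same mice, labels can be exchanged only jointly (70 assignments, smallest possible p = 0.0286), and then none of the 31 pairs passed (smallest adjusted p = 0.0633 by exact permutation, 14 pairs at an unadjusted p under 0.05). The calls that follow hold only under the first assumption. A result past the threshold shows unequal change of signal, not that either gene was unchanged. Of the 31 pairs 18 passed, and 17 of them also after quantile normalization, all 18 with the same sign. Within 1 population the test of 4 against 4 arrays cannot go below 0.0286, and none of those 62 tests passed after adjustment (smallest adjusted p = 0.0656).

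The 3 isocitrate dehydrogenase subunits had unequal differences. Idh3a minus Idh3b was greater on the null-labelled arrays by 0.66 in KSL and 0.64 in KL, and Idh3a minus Idh3g by 0.91 and 0.64 (exact permutation, adjusted p = 0.00158 for each). Idh3b minus Idh3g differed by 0.25 in KSL and 0.00 in KL (exact permutation, adjusted p = 0.0422, and 0.0661 after quantile normalization). Between isoenzymes, Mdh1 minus Mdh2 changed by -0.87 in KSL and -0.66 in KL, and Idh1 minus Idh2 by 0.63 and 0.55 (exact permutation, adjusted p = 0.00158 for each). Me1 minus Me2 changed by -0.43 and -0.78, with the same adjusted p by exact permutation. Me1 read 4.77 to 5.02 on the 16 arrays, below the median brightness, so this pair says little about Me1 itself. Got1 minus Got2 changed by -0.06 and -0.22, which did not pass (exact permutation, adjusted p = 0.185).

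In both 2-oxoacid dehydrogenase complexes the mean difference of the E2 core gene exceeded that of the E1 gene beside it. In KL, however, each of these E1 and E2 pairs overlapped between labels. Pdhb minus Dlat changed by -0.46 in KSL and -0.23 in KL (exact permutation, adjusted p = 0.00422), Pdha1 minus Dlat by -0.39 and -0.06 (adjusted p = 0.0269), and Ogdh minus Dlst by -0.36 and -0.18 (adjusted p = 0.00920). The KSL value of Ogdh minus Dlst includes KSL WT replicate 1, at 1.10 where the other KSL WT arrays stood at 0.53 to 0.65. Dlat minus Dld changed by 0.09 and 0.13 and did not pass (exact permutation, adjusted p = 0.319). Of the 10 pairs in the pyruvate dehydrogenase complex 5 passed, each of them setting Dlat or Dld against an E1 gene or Pdhx. In succinate dehydrogenase the 3 pairs that passed were those with Sdhd, as in Sdhb minus Sdhd at -0.42 and -0.28 (exact permutation, adjusted p = 0.00158). Only that pair was without overlap between labels in both populations. Sdha minus Sdhd overlapped in both, and Sdhc minus Sdhd in KSL. No pair of the 3 synthetase subunits passed.

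**Figure D4:**
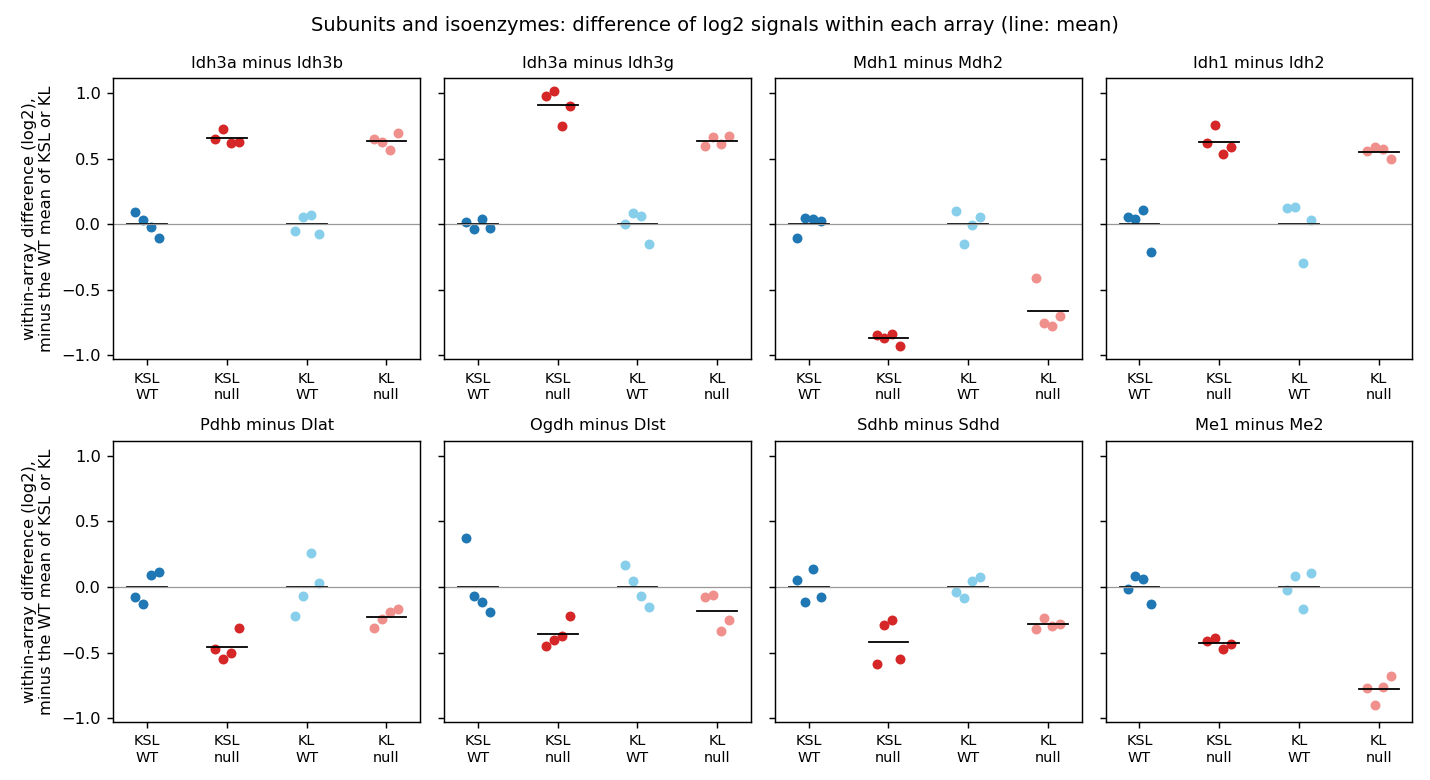
Difference of the log2 signals of 2 genes within each array for 8 pairs, minus the mean of the WT arrays of the same population (points, arrays; lines, means; 4 arrays a group). Idh3a minus Idh3g rises to 0.91 in KSL and 0.64 in KL and Mdh1 minus Mdh2 drops to -0.87 and -0.66, while Ogdh minus Dlst overlaps between labels in KL.

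The difference between genotype labels was not shown to depend on the population for any gene of the list. In the interaction test over all 16 arrays none of the 33 genes and 0.00% of all genes passed, with 6 of the 33 and 1867 of 30176 genes (6.19%) at an unadjusted p under 0.05. Me2 came nearest, its difference in KSL minus that in KL being -0.22 (95% interval -0.39 to -0.05, adjusted p = 0.690). Idh2 and Idh3g, which passed in KSL alone, had interaction values of -0.24 (-0.42 to -0.05, adjusted p = 0.710) and -0.24 (-0.46 to -0.03, adjusted p = 0.759).

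KSL and KL arrays were also compared under each label. Under the WT label none of the 33 genes passed, and 0.109% of all genes did. Me2 was the 1 gene of the list without overlap there, KSL reading 0.25 above KL (0.13 to 0.37, adjusted p = 0.125), where 1.44% of all genes were higher and 1.89% lower without overlap. Under the null label 3 genes passed (1.07% of all genes), all lower in KSL (0.799%). They were Idh2 at -0.40 ± 0.061 (adjusted p = 0.00505), Idh3g at -0.33 ± 0.071 (adjusted p = 0.0383) and Mdh1 at -0.27 ± 0.049 (adjusted p = 0.0119), the same 3 genes that fell with the null label in KSL. Without overlap, 8 of the 33 were lower in KSL (4.42% of all genes) and 1 was higher (4.49%). This comparison uses the KSL null arrays of the genotype comparison, so it is not a separate measurement of them. Idh3g lost its call on leaving out any 1 of 9 of the 16 arrays (KSL WT replicates 3 and 4, KSL null replicates 1 to 3 and each KL null array, adjusted p of 0.0501 to 0.116), and Mdh1 on leaving out KL null replicate 1 (adjusted p = 0.0539).

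Genes around the cycle were read from a second list of 51, of which 44 were analysed. In KSL 5 rose and 7 fell, where 8.50% and 10.5% of all genes did, and in KL 7 rose and 7 fell, where 7.13% and 8.69% did. The median log2 differences were 0.01 and 0.04, against 0.05 and 0.03 over all genes. Slc25a21, Acss1 and Lipt2 passed with a fold of at least 1.5 in KSL or KL. Slc25a21, the mitochondrial carrier that exchanges oxodicarboxylates such as 2-oxoadipate for 2-oxoglutarate, read 5.65, 6.08, 6.02 and 5.80 on the KSL WT arrays and 8.35, 8.71, 8.50 and 8.41 on the null arrays. In KL it read 4.97, 5.21, 5.49 and 5.53 against 7.58, 8.20, 8.76 and 8.65. Its rise of 2.61 ± 0.11 (6.09-fold, adjusted p = 7.53e-07) in KSL and 3.00 ± 0.24 (7.98-fold, adjusted p = 4.23e-05) in KL exceeded that of every enzyme of the cycle list. Acss1, which makes acetyl-CoA from acetate in the matrix, rose by 0.77 (adjusted p = 0.00213) and 0.72 (adjusted p = 0.00635). Lipt2, the octanoyltransferase that starts lipoate synthesis, fell by 0.87 ± 0.22 in KSL and 0.55 ± 0.11 in KL, while Lias, the lipoyl synthase of the next step, rose by 0.42 and 0.46. Lias did not reach that fold and was named after its values were seen. Among the 6 genes of lipoate attachment on the second list, 2 rose and 2 fell in each population. Dlat and Dlst carry the lipoate that Lipt2 and Lias make.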

How the data were processed

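The authors deposited 1 table of log2 expression values for the 16 arrays, made by robust multi-array averaging (RMA) in Partek 6.6 per the labels. RMA subtracts background and sets all arrays to 1 distribution over probes, so a shift common to all genes cannot be seen, and array data compress folds. The genome build of the probe sets is not given in the sources used here, and the platform annotation names the genes. Of 72688 features, 30638 name 1 gene, 2176 name several and were left out, and 39874 have no listed gene. The brightest probe set was kept for each of 30176 genes. Array medians ran from 5.01 to 5.12, no arrays were identical, and precision is limited by 4 arrays a group. Groups follow the labels.

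Each comparison was fitted with lmFit and eBayes in limma 3.58.1 (R 4.3.3), genotype contrasts on the 8 arrays of a population and the others on all 16. Tests were two-sided, with Benjamini-Hochberg adjustment over all genes and a threshold of 0.05. Errors are SE from the fit. The scripts were tested on simulated data. Pair tests used Python 3.11.15.

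The genes and lists were chosen with earlier results of these data known. All 33 genes are named. Values on every array were to be given for genes that passed with a fold of at least 1.5, and genes of the second list were to be named by the same rule. Some genes of the second list are not reported here. Alternatives varied the threshold, normalization, filter, probe sets, variance model, block, arrays and test. Both pair tests, the fits on replicates 1 and 2 or 3 and 4 and the replicate-number test were added after seeing the data.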

Additional observations from a re-analysis of the deposited data

Results flagged for a closer look

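Each group of 4 arrays was checked for a value far from the others, its gap to the nearest divided by the range of the group being above Dixon's 95% critical value. Among 132 groups (33 genes in 4 groups) 3 were so marked, where chance marks about 1 in 20. Ogdh read 9.68 on KSL WT replicate 1 while the other 3 arrays read 8.91 to 9.01. Aco1 read 8.06 on KL null replicate 3 against 7.85 to 7.88. Idh2 read 8.93 on KSL null replicate 3 against 8.83 to 8.84. The calls of Aco1 in KL and of Idh2 in KSL held in each of the 8 fits that left out 1 array, and Ogdh passed in neither population.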

How the results depend on the processing

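No gene of the list that passed changed direction under any alternative run. In KSL the 12 calls held in all 8 fits that left out 1 array (9 to 11 higher and 3 lower) and under quantile normalization, where 16 genes passed. In KL such fits gave 10 to 14 higher and 0 to 1 lower. With Benjamini-Hochberg adjustment the methods' t-test kept the 12 KSL calls. It kept 11 of the 15 KL calls, losing Idh1, Dld, Mdh2 and Pcx there. A fold of at least 1.5 left 3 higher and 0 lower in KSL, 2 higher and 0 lower in KL, and 0 lower for KSL minus KL under the null label. In KL the lower calls numbered 2 under quantile normalization, 3 with all 16 arrays in the fit and 3 by the methods' t-test without adjustment. Replicates 1 and 2 alone gave 2 higher and 2 lower in KSL and 4 higher and 0 lower in KL. Replicates 3 and 4 alone gave 11 higher and 2 lower in KSL, losing Idh3g and adding Got2 and Sdhd, and 7 higher and 0 lower in KL. Those fits hold 4 arrays each. For KSL minus KL, leaving out 1 array gave 1 to 3 lower under the null label and 0 under WT. The methods' t-test gave 0 lower under the null label after Benjamini-Hochberg adjustment, and without adjustment 1 higher and 8 lower under the null label and 1 higher and 2 lower under WT. The interaction called 0 genes of the list in each fit run, and of all genes 7 after quantile normalization and 8 without KL null replicate 4.

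Same-numbered arrays of the WT and null groups correlated at -0.01 to 0.24 in their deviations from the group means. The highest correlation with an array of another number ran from -0.04 to 0.23. These ranges cannot settle whether the numbers pair the arrays, and the main fits took them as unpaired. Same-numbered KSL and KL arrays of one genotype label correlated at 0.03 to 0.22, which cannot settle whether they came from the same mice. Camkk2 varied with the replicate number over the 16 arrays (limma F test, adjusted p = 0.000366). With the replicate number as a block 13 genes passed in KSL, adding Sdhd, and 16 in KL, adding Pdhb, while Idh3g lost its call for KSL minus KL under the null label.

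With 4 arrays a group, the 95% intervals of genes that did not pass bound their differences, and these genes were not shown to be unchanged. The labels name replicates as biological, and p-values measure the spread between these arrays.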
